A study of Homo sapiens with 12 samples.

Results

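Interferon-stimulated genes and genes of major histocompatibility complex (MHC) class I antigen presentation were followed in human hepatocellular carcinoma (HCC) cells treated with an mTOR inhibitor, a SHP2 inhibitor or both. The members were a written list of 52 gene names, and 39 of them were among the 11548 genes analysed. Of the 39, 9 belong to class I presentation (HLA-B, HLA-C, HLA-E, B2M, TAP1, TAP2, TAPBP, ERAP1 and ERAP2) and 23 are interferon-stimulated genes (ISG). The other members are 3 regulators (IRF1, IRF2 and IRF3) and 4 interferon receptor subunits (IFNAR1, IFNAR2, IFNGR1 and IFNGR2). The remaining 13 names (HLA-F, NLRC5, IRF7, IRF9, IFI16, IFI27, IFI44, IFIT1, IFIT2, IFITM1, MX1, BST2 and PSMB8-AS1) were not analysed here.

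RNA was sequenced from Hep3B, MHCC97H and Huh7, wild-type cell lines established from HCC, with 1 library for each cell line and treatment and 12 libraries in all. Cells were left untreated, or received the mTOR kinase inhibitor AZD8055 at 100 nM, or compound #57, an allosteric inhibitor of the phosphatase SHP2, or the combination of 100 nM AZD8055 with 5 µM compound #57. The dose of compound #57 given alone is not given in the sources used here. Hep3B and Huh7 were exposed for 48 h and MHCC97H for 24 h, so that effects of time and of cell line cannot be told apart. A treatment therefore has no replicate within a line, and the 3 lines served as its replicates. Libraries held between 10667343 and 15968317 reads, and values are given as reads scaled to a library total of 10000000, written here as scaled reads. The hepatocyte and hepatoma markers ALB, AFP, APOA1, APOB, TTR, SERPINA1, TF, FGB, HNF4A, KRT8 and KRT18 summed to between 25527 and 63808 CPM (counts scaled to library size) in Hep3B, between 39117 and 54831 in Huh7 and between 5258 and 6137 in MHCC97H. In MHCC97H the log2 level of TTR averaged 0.77 and that of APOA1 2.60, whereas KRT8 averaged 15.27 and HNF4A 9.84. Of 8 leukocyte markers, only LYZ and CD74 were analysed here, and their sum reached at most 757 CPM in Huh7, 146 in Hep3B and 0.982 in MHCC97H. The part of these markers in the results was not tested. In RNA of whole cultures, a larger share of responding cells and more RNA per cell cannot be told apart.

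Type I interferons bind IFNAR1 with IFNAR2, and interferon gamma binds IFNGR1 with IFNGR2. Both receptors signal through JAK kinases to STAT factors, which bind a DNA element called ISRE when joined to IRF9 and an element called GAS as dimers, and IRF1 then acts on many of the same promoters. The ISG products sense viral RNA, block viral entry and replication or tag proteins, and the class I products load peptides onto HLA molecules for display to cytotoxic T cells: TAP1 and TAP2 pump peptides into the endoplasmic reticulum, TAPBP (tapasin) bridges the pump to the HLA chain, ERAP1 and ERAP2 trim the peptides, and B2M is the light chain.

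Promoter windows from 250 bases before to 50 bases after the start site were read from RefSeq (GRCh38.p14) for the 34 members that matched a window. The letters GAAA, any 2 bases and GAAA again, an ISRE-type string, stood on either strand in the windows of 15 of 22 ISG (68.2%) and 6 of 8 class I genes (75%), against 3.57% of all 35116 windows. The letters TTCNNNGAA (N for any base), a GAS-type string, stood in 3 of 22 ISG (13.6%), in 1 of 8 class I genes (TAP1) and in IRF1, against 7.66% of all windows. None of the 3 receptor genes with a window held either string, and matches of the strings may overlap or adjoin each other. A match describes the letters only. Members were counted as genes with a match in any of their windows, whereas the shares of all windows count single windows. The stretches below are 30 bases each, read 5′ to 3′ on the strand of the gene, with the matches in capitals, and are shown because these genes carry the differences described in the following paragraphs: the TAP pump and tapasin, where TAP1 and TAP2 moved apart, B2M, the regulator IRF1, and ISG that rose (IFIH1, PARP14 and IFITM3) beside ISG that did not move together (ISG15 and OAS3). TAP1 lies on the minus strand at chr6:32853816-32853845, TAP2 on the minus strand at chr6:32838778-32838807, TAPBP on the minus strand at chr6:33314079-33314108 and B2M on the plus strand at chr15:44711366-44711395. The GAS-type stretch of IRF1 lies on the minus strand at chr5:132490879-132490908. IFIH1 lies on the minus strand at chr2:162318686-162318715, PARP14 on the plus strand at chr3:122680800-122680829, IFITM3 on the minus strand at chr11:320885-320914, ISG15 on the plus strand at chr1:1013377-1013406 and OAS3 on the plus strand at chr12:112938444-112938473.
TAP1: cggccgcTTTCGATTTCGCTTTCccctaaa
TAP2: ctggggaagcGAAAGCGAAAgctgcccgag
TAPBP: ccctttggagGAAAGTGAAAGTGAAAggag
B2M: actctaaGAAAAGGAAACTGAAAacgggaa
IRF1: aacagcctgatTTCCCCGAAatgacggcac
IFIH1: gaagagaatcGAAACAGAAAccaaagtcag
PARP14: tccaggaaacGAAAGCGAAAgagtcaaagt
IFITM3: agGAAAAGGAAActgttgaGAAACCGAAAc
ISG15: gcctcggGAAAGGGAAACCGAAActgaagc
OAS3: gttcggagagccgggcggGAAAACGAAAcc

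Most class I genes rose in the combination, and the peptide pump was split. Of 9 class I genes, 6 were called higher than in untreated cells (HLA-B, HLA-C, HLA-E, TAP1, TAPBP and ERAP1), 1 was called lower (TAP2), and B2M and ERAP2 were not called. A call is a Benjamini-Hochberg adjusted p under 0.05 over all 11548 genes in limma, with treatment and cell line as terms and all 12 libraries in the fit, and 20.9% of all genes were called higher and 15.1% lower in this comparison. All calls of members in this comparison were lost when Huh7 was left out of the fit (0 of 39 members, with 0.0953% of all genes called). TAP1 had 58.1 scaled reads in untreated Hep3B cells, 101 with AZD8055, 188 with compound #57 and 318 with the combination. In MHCC97H the same 4 treatments gave 195, 328, 256 and 437, and in Huh7 13.2, 49.0, 45.7 and 88.6. In every line the untreated library was lowest and the combination library highest. The log2 difference between combination and untreated was 2.09 (SE 0.32, n = 3 cell lines, limma adjusted p = 0.00301). TAP1 (chromosome 6, 32845209 to 32853816 of hg38, minus strand) overlaps PSMB9 and PSMB8-AS1 on the other strand. The libraries were stranded, but the strand setting of the counting is not given in the sources used here. TAP2 (chromosome 6, 32821833 to 32838739, minus strand), which encodes the partner of TAP1 in the pump, went the other way: 210, 199, 144 and 111 scaled reads in Hep3B, 181, 154, 188 and 111 in MHCC97H and 36.3, 12.5, 22.1 and 8.6 in Huh7, in the same order of treatments. The combination library was lowest in every line, with a log2 difference of -1.19 (SE 0.29, limma adjusted p = 0.0132).

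**Figure D1:**
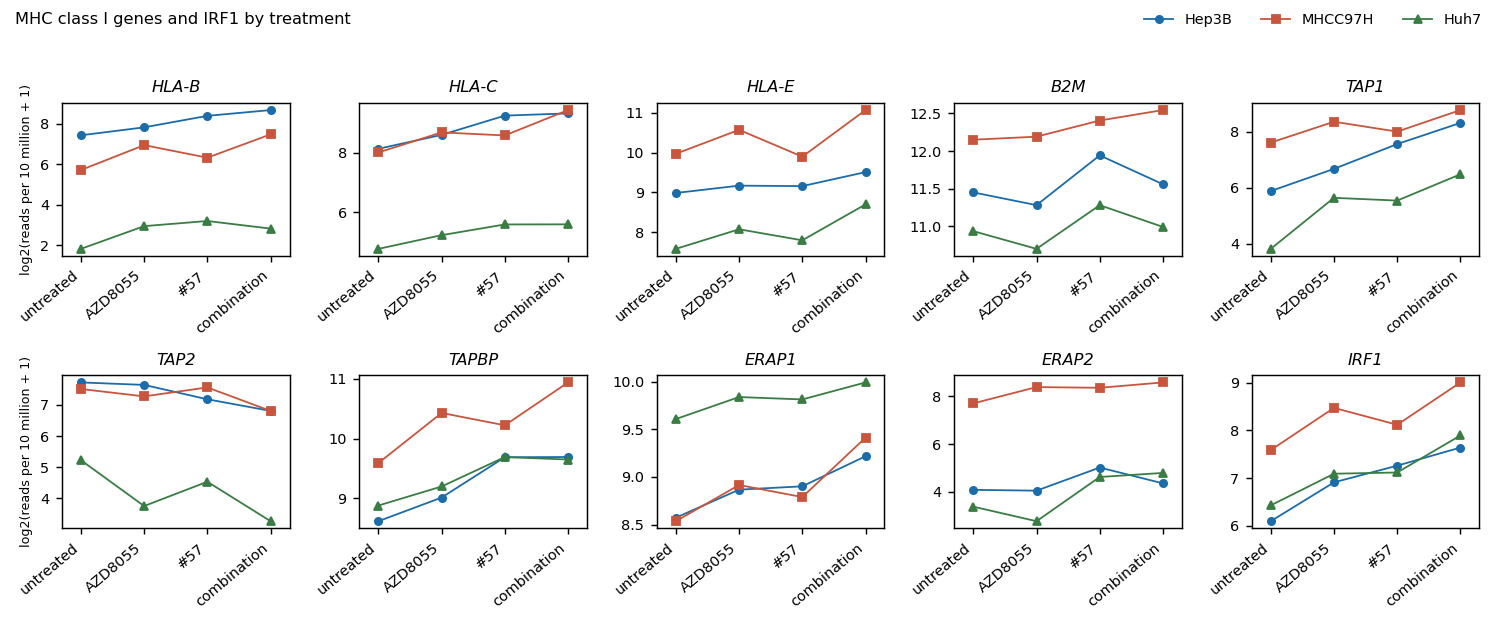
Log2 level (scaled reads plus 1, vertical axis, a separate scale for each gene) of the 9 class I genes and IRF1 under the 4 treatments (horizontal axis), with 1 library per point and lines joining the libraries of 1 cell line. TAP1 and IRF1 were highest with the combination in all 3 cell lines, and TAP2 was lowest there.

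The classical heavy chains HLA-B and HLA-C and the nonclassical chain HLA-E also rose. HLA-C had 279 scaled reads in untreated Hep3B cells, 387 with AZD8055, 606 with compound #57 and 638 with the combination. In MHCC97H it had 256, 410, 382 and 690, and in Huh7 26.3, 36.5, 47.2 and 47.3. The untreated library was lowest in each line, and the log2 difference between combination and untreated was 1.15 (SE 0.18, limma adjusted p = 0.00335). HLA-B had 172, 226, 335 and 409 scaled reads in Hep3B and 51.4, 122, 79.0 and 177 in MHCC97H, with a log2 difference over the 3 lines of 1.34 (SE 0.30, limma adjusted p = 0.00938). In Huh7 its value rested on 4 reads in untreated cells and 7 with the combination, and the 95% interval of that difference, from -0.71 to 3.48, covers counting error only and includes 0. HLA-E had 506, 575, 571 and 729 scaled reads in Hep3B, 1003, 1525, 955 and 2153 in MHCC97H and 190, 268, 221 and 415 in Huh7. It was highest with the combination in each line, and its log2 difference from untreated was 0.91 (SE 0.16, limma adjusted p = 0.00411). HLA-B and HLA-C are close in sequence, and how reads were divided between them is not given in the sources used here.

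The tapasin gene TAPBP rose from 393 scaled reads in untreated cells to 826 with the combination in Hep3B, from 770 to 1958 in MHCC97H and from 471 to 802 in Huh7, a log2 difference of 1.06 (SE 0.17, limma adjusted p = 0.00335). The peptidase gene ERAP1 rose from 380 to 594, from 370 to 681 and from 780 to 1018 in the same order of lines, a log2 difference of 0.64 (SE 0.12, limma adjusted p = 0.00501). Both were thus higher in 3 of 3 lines. B2M, the light chain, had 2796 scaled reads in untreated Hep3B cells and 3013 with the combination, 4545 and 5973 in MHCC97H and 1956 and 2033 in Huh7. Its log2 difference of 0.19 (SE 0.12, limma adjusted p = 0.257) was not called, and B2M was highest with compound #57 alone in Hep3B and Huh7. ERAP2 had 15.9 and 19.4 scaled reads in Hep3B, 207 and 382 in MHCC97H and 9.39 and 26.7 in Huh7, a log2 difference of 0.85 (SE 0.37, limma adjusted p = 0.0940).

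Of the regulators, IRF1 rose. This transcription factor is itself induced by interferon gamma and activates class I promoters, and its own window holds the GAS-type string printed above. IRF1 had 67.5 scaled reads in untreated Hep3B cells, 119 with AZD8055, 152 with compound #57 and 198 with the combination. In MHCC97H it had 191, 354, 276 and 512, and in Huh7 85.2, 135, 138 and 237. All 3 treated libraries lay above the untreated one in each line, and the combination was highest. The log2 difference between combination and untreated was 1.47 (SE 0.16, limma adjusted p = 0.00169), between 1.42 and 1.54 in the single lines. With AZD8055 alone the log2 difference of IRF1 was 0.79 (SE 0.16, limma adjusted p = 0.0394), and with compound #57 alone it was also 0.79 (SE 0.16, limma adjusted p = 0.0912). IRF2, which competes with IRF1 for DNA, had 207 scaled reads in untreated cells and 145 with the combination in Hep3B, 183 and 130 in Huh7 but 172 and 272 in MHCC97H, and was not called. IRF3, which acts downstream of the RNA sensors, had 802 and 411 in Hep3B, 867 and 700 in MHCC97H and 444 and 454 in Huh7, with a log2 difference of -0.41 (SE 0.17, limma adjusted p = 0.0844).

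The 4 receptor genes were higher with the combination in all 3 lines, as were 33.4% of all genes, and 3 of them were called higher, as were 20.9% of all genes. IFNGR1, the ligand-binding chain of the interferon gamma receptor, rose from 678 to 1109 scaled reads in Hep3B, from 1257 to 2374 in MHCC97H and from 577 to 987 in Huh7, a log2 difference of 0.80 (SE 0.12, limma adjusted p = 0.00301). Its partner IFNGR2 rose from 520 to 1169, from 738 to 836 and from 249 to 440, a log2 difference of 0.72 (SE 0.18, limma adjusted p = 0.0146). The difference of IFNGR2 was small in MHCC97H. IFNAR1 of the type I receptor was called as well, with a log2 difference of 0.42 (SE 0.11, limma adjusted p = 0.0163), and IFNAR2 was not, at 0.40 (SE 0.17, limma adjusted p = 0.0856).

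RNA sensors were among the ISG that rose. In the combination against untreated, limma called 7 of the 23 ISG higher (30.4%), beside the 20.9% of all genes called higher. It called 0 lower, so that 30.4% were called in either direction, which lay below the 36.0% of all genes. At an unadjusted p under 0.05 there were 10 of 23 ISG (47.6% of all genes in either direction), all higher. The 7 called were the RNA sensors IFIH1 (MDA5) and DDX58 (RIG-I), the nuclear body protein SP100, the antibody receptor and ubiquitin ligase TRIM21, the ISG15-conjugating enzyme UBE2L6, and PARP14 and DTX3L, which encode an ADP-ribosyltransferase and a ubiquitin ligase. IFIH1 had 97.5 scaled reads in untreated Hep3B cells, 132 with AZD8055, 154 with compound #57 and 161 with the combination. In MHCC97H it had 49.9, 112, 130 and 195, and in Huh7 13.2, 15.8, 37.6 and 42.1. The order of the treatments was the same in the 3 lines, and the log2 difference between combination and untreated was 1.42 (SE 0.27, limma adjusted p = 0.00573). SP100 had 176, 320, 354 and 434 scaled reads in Hep3B, 398, 615, 434 and 862 in MHCC97H and 97.1, 191, 164 and 204 in Huh7. It was at least 2-fold higher with the combination in every line, with a log2 difference of 1.16 (SE 0.17, limma adjusted p = 0.00296). The other called log2 differences were 0.98 (SE 0.21) for DDX58, 0.96 (SE 0.17) for TRIM21, 1.01 (SE 0.35) for UBE2L6, 0.76 (SE 0.20) for PARP14 and 0.62 (SE 0.18) for DTX3L, with limma adjusted p between 0.00443 and 0.0464. In UBE2L6 the lines differed in size, since it rose from 68.4 to 138 scaled reads in Hep3B and from 27.6 to 107 in MHCC97H but stood at 572 and 619 in Huh7. PARP9 and DTX3L are neighbours that overlap on opposite strands, and PARP9 itself had a log2 difference of 0.39 (SE 0.22, limma adjusted p = 0.193).

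The 16 ISG that were not called had log2 differences from -0.34 (TRIM25) to 1.23 (SECTM1), and widely used readouts of an interferon response were among them. ISG15, a ubiquitin-like modifier, had 90.9 scaled reads in untreated Hep3B cells, 197 with AZD8055, 165 with compound #57 and 166 with the combination. In MHCC97H it had 104, 122, 98.3 and 98.6, and in Huh7 55.1, 63.1, 71.5 and 55.0. The treated libraries stood apart from untreated in Hep3B alone, a difference between lines that was not tested, and the log2 difference for the combination was 0.26 (SE 0.22, limma adjusted p = 0.371). IFI6, an inhibitor of apoptosis and of flavivirus replication, had 71.2, 266, 90.2 and 45.4 scaled reads in Hep3B against 6.91, 7.01, 12.3 and 13.7 in MHCC97H and 17.5, 10.8, 18.4 and 13.8 in Huh7. AZD8055 thus gave the highest value of IFI6 in Hep3B and the lowest in Huh7. OAS1 and OAS3 make the activator of RNase L. OAS3 had 50.6 scaled reads in untreated Hep3B cells and 111 with the combination, 2051 and 965 in MHCC97H and 121 and 129 in Huh7. IFIT3, which binds IFIT1 on viral RNA, had 12.2 and 19.4 in Hep3B, 43.8 and 187 in MHCC97H and 17.5 and 29.2 in Huh7, a log2 difference of 1.14 (SE 0.43, limma adjusted p = 0.0626). The lowest counts among the members were 3 reads, in untreated Hep3B cells, for IFIT5 and for OAS1. IFIT5 had 15 reads there with the combination, a ratio of 3.45 after 1 was added to both scaled values. OAS1 had 4 reads, a ratio of 1.11 worked out in the same way. For reads without the added 1, the 95% interval of the log2 difference was 0.29 to 4.54 for IFIT5. It was -2.36 to 2.98 for OAS1, and both intervals cover counting error only. ADAR, TRIM25 and EIF2AK2 (PKR) had log2 differences of -0.09, -0.34 and 0.07, with adjusted p of 0.561, 0.138 and 0.684 in limma.

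**Figure D2:**
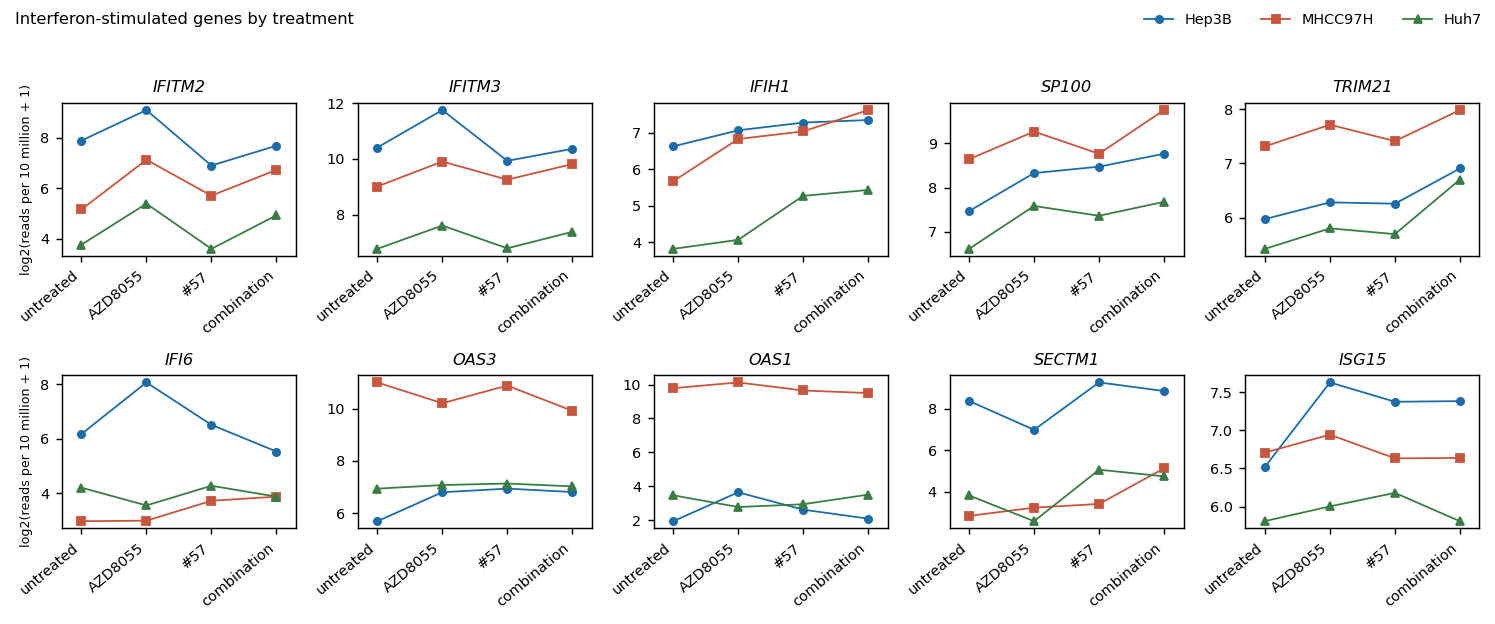
Log2 level (scaled reads plus 1, vertical axis, a separate scale for each gene) of 10 ISG under the 4 treatments (horizontal axis), with 1 library per point and lines joining the libraries of 1 cell line. IFITM2 and IFITM3 were highest with AZD8055 in every line, and OAS1 and OAS3 stood highest in MHCC97H.

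AZD8055 alone gave 4 called members, all higher (10.3% of 39, against 2.21% of all genes called higher): IFITM2, IFITM3, SP100 and IRF1. None was called lower, as were 0.753% of all genes, and 16 members had an unadjusted p under 0.05 (27.4% of all genes), all of them higher. IFITM2 and IFITM3 encode membrane proteins that block the entry of viruses at endosomes. IFITM2 had 234 scaled reads in untreated Hep3B cells, 543 with AZD8055, 118 with compound #57 and 203 with the combination. In MHCC97H it had 34.5, 138, 50.9 and 104, and in Huh7 12.5, 40.7, 11.1 and 29.2. AZD8055 alone gave the highest value in every line, at least 2-fold above untreated (as were 0.693% of all genes), with a log2 difference of 1.60 (SE 0.31, limma adjusted p = 0.0382). With the combination the log2 difference of IFITM2 from untreated was 0.84 (SE 0.31, limma adjusted p = 0.0588), and that of the combination from AZD8055 was -0.76 (SE 0.31, limma adjusted p = 0.310). IFITM3 had 1360, 3458, 977 and 1317 scaled reads in Hep3B, 515, 960, 611 and 901 in MHCC97H and 108, 194, 110 and 166 in Huh7. Its log2 difference with AZD8055 was 1.03 (SE 0.23, limma adjusted p = 0.0477), and here too AZD8055 alone was highest in every line. IFITM2 and IFITM3 are neighbours and nearly identical in sequence, and the division of reads between them is not given in the sources used here. SP100 had a log2 difference of 0.82 (SE 0.17, limma adjusted p = 0.0415) with AZD8055. Of the class I genes, 0 of 9 were called with AZD8055 and 6 had an unadjusted p under 0.05, with log2 differences of 1.12 for TAP1 (SE 0.32, limma adjusted p = 0.0697), 0.92 for HLA-B (SE 0.30, limma adjusted p = 0.0900) and 0.53 for HLA-C (SE 0.18, limma adjusted p = 0.103). TAP2 had -0.60 (SE 0.29, limma adjusted p = 0.213) and SECTM1 -0.74 (SE 0.46, limma adjusted p = 0.309). Leaving out any 1 of the 3 lines, or fitting the AZD8055 and untreated libraries alone, gave 0 called members, when at most 0.944% of all genes were called.

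With compound #57 alone, limma called 0 of the 39 members and 1 of all genes (0.00866%). At an unadjusted p under 0.05 there were 16 members, all higher (21.7% of all genes in either direction), and voom on whole reads called 0 members and 0.779% of all genes. Without MHCC97H, 7 members were called, all higher, when 778 of all genes were called (4.04% higher and 2.69% lower). The largest class I log2 differences were those of TAP1 at 1.26 (SE 0.32, limma adjusted p = 0.102), HLA-B at 0.98 (SE 0.30, limma adjusted p = 0.125) and ERAP2 at 0.94 (SE 0.37, limma adjusted p = 0.183). HLA-C and TAPBP followed at 0.84 each (limma adjusted p = 0.0912 for both). Among the ISG, IFIH1 at 1.15 (SE 0.27, limma adjusted p = 0.0946), SECTM1 at 0.90 (SE 0.46, limma adjusted p = 0.278) and UBE2L6 at 0.89 (SE 0.35, limma adjusted p = 0.182) had the largest log2 differences. IFITM2 stood at -0.20 (SE 0.31) and TAP2 at -0.39 (SE 0.29). In direction, 25 of 39 members were higher in all 3 lines with compound #57 (1 lower), where 30.6% of all genes were higher and 19.7% lower. With AZD8055 the corresponding counts were 19 members higher and 3 lower (28.4% and 25.7% of all genes), and with the combination 25 higher and 1 lower (33.4% and 25.6%). All 8 class I genes other than TAP2 were higher with the combination in all 3 lines, and HLA-B, TAP1, SP100 and IRF1 at least 2-fold (4 of 39 members, against 3.05% of all genes).

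**Figure D3:**
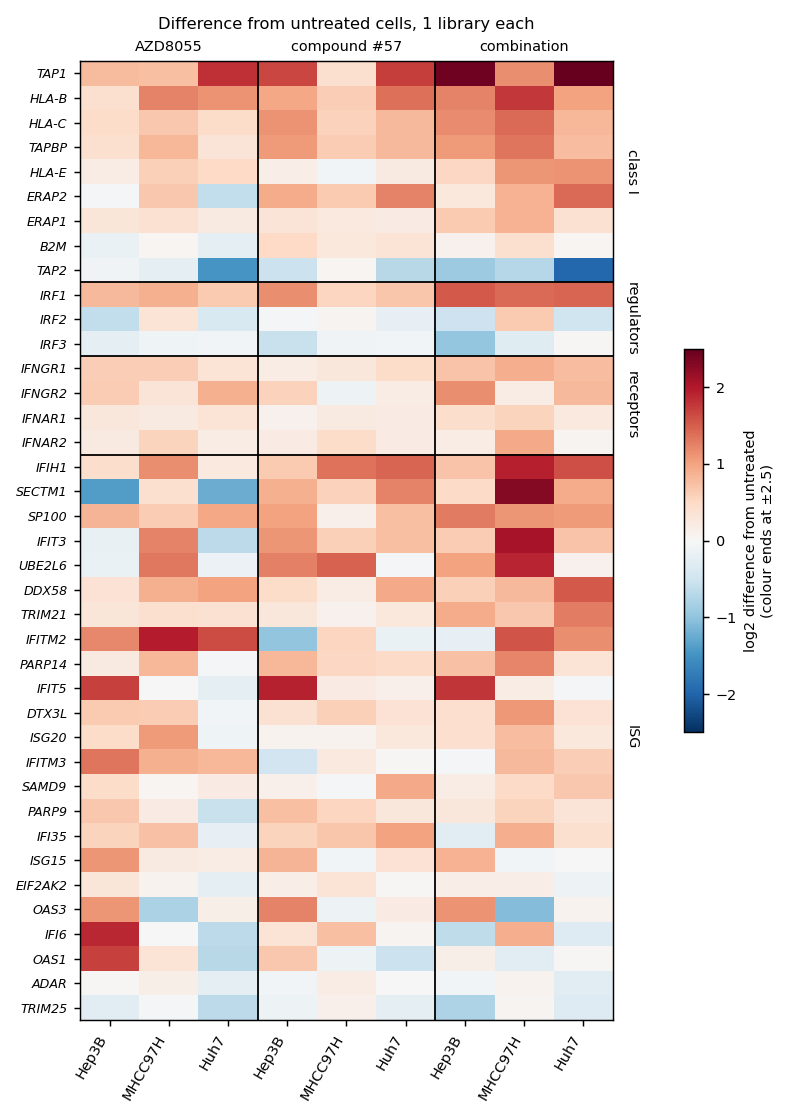
Log2 difference from the untreated library of the same cell line (colour, red for higher and blue for lower, ending at 2.5 in either direction) for the 39 members (rows, grouped by role) with AZD8055, compound #57 or the combination (columns, 1 library against 1). TAP1 is the top row, with combination values of 2.43 (Hep3B), 1.16 (MHCC97H) and 2.66 (Huh7), and TAP2 closes the class I rows with -0.91, -0.70 and -1.96.

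Set side by side, the class I list stood above the ISG list in most comparisons, which is a description of 9 and 23 genes and carries no test. Over the means of the 3 lines, the median log2 difference in the combination against untreated was 0.91 for class I and 0.48 for ISG, with 0.09 for all genes. With compound #57 it was 0.84 for class I, 0.44 for ISG and 0.05 for all genes, and with AZD8055 it was 0.43, 0.36 and 0.03. Over the members with at least 25 reads in every library, however, the medians with compound #57 were 0.36 for class I (5 genes) and 0.38 for ISG, and class I no longer lay above. Without Huh7 the medians with AZD8055 were 0.39 for class I and 0.62 for ISG, the ISG then being the higher. With compound #57 the class I median exceeded the ISG median by 0.54 in Huh7, by 0.37 in Hep3B and by 0.15 in MHCC97H. With AZD8055 the same subtraction gave 0.43, -0.16 and 0.27. In the combination the class I and ISG medians were 0.65 and 0.43 in Hep3B, 1.10 and 0.81 in MHCC97H and 0.82 and 0.34 in Huh7. Pairs of a comparison and a cell line share libraries within a line and are not independent of each other. The class I median was the higher in 13 of the 15 pairs. The exceptions were AZD8055 against untreated in Hep3B, with 0.29 for class I and 0.45 for ISG, and the combination against AZD8055 in Huh7, with 0.36 and 0.37. In Huh7 the ISG median with AZD8055 was -0.12, and 9 of 23 ISG were higher there against 19 in Hep3B and 20 in MHCC97H. In MHCC97H with the combination the ISG ran from -1.09 for OAS3 to 2.29 for SECTM1. SECTM1, a secreted T cell ligand, had 332, 126, 617 and 463 scaled reads in Hep3B, 6.14, 8.42, 9.65 and 34.0 in MHCC97H and 13.2, 4.98, 32.4 and 25.8 in Huh7.

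**Figure D4:**
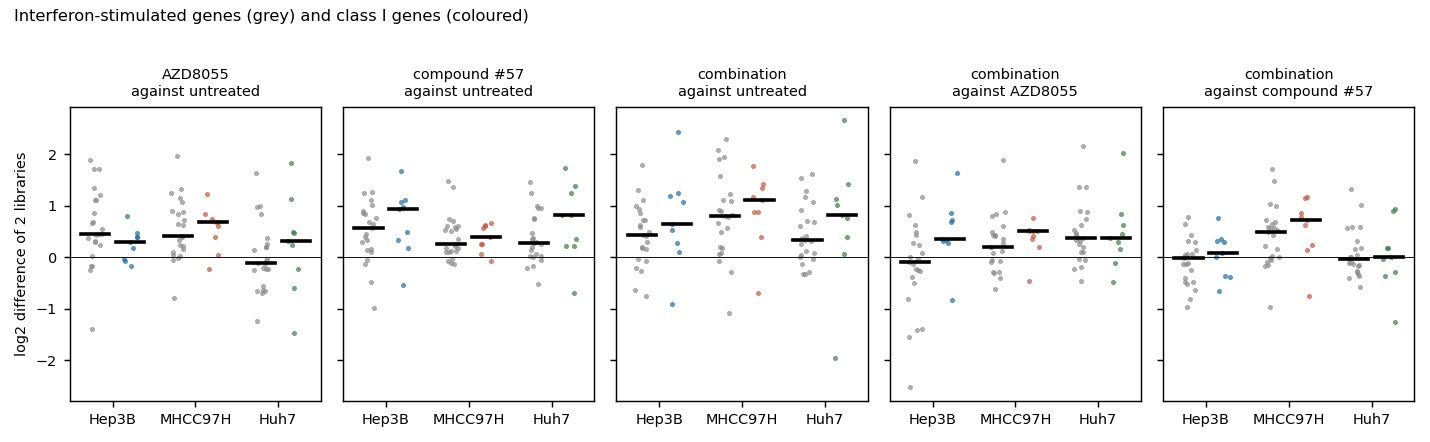
Log2 difference of 2 libraries of 1 cell line (vertical axis) for each of the 23 ISG (grey points) and 9 class I genes (coloured points), by cell line (horizontal axis) in 5 comparisons (panels), with bars at the medians. The class I bar lies above the ISG bar in 13 of 15 pairs, which share libraries within a line, and the points of both lists overlap throughout.

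The combination was also compared with each single drug. Against AZD8055, limma called 0 members and 0 of all genes (0.0%), with 15 members at an unadjusted p under 0.05 (14.5% of all genes), 13 of them higher, and 0 called by voom. The median log2 difference was 0.49 for class I and 0.16 for ISG, beside 0.04 for all genes, and the ISG median was -0.02 when Huh7 was left out. SECTM1 alone was at least 2-fold higher in all 3 lines (0.251% of all genes were), with a log2 difference of 1.98 (SE 0.46, limma adjusted p = 0.169). Next came IFIT3 at 1.0 (SE 0.43) and TAP1 at 0.97 (SE 0.32), and the lowest were IFITM2, TAP2 at -0.60 (SE 0.29) and IFITM3 at -0.57 (SE 0.23), none of them called. Against compound #57, 3 members were called, all higher (7.69% of 39, against 2.62% of all genes called higher): HLA-E at 0.81 (SE 0.16, limma adjusted p = 0.0323), TRIM21 at 0.74 (SE 0.17, limma adjusted p = 0.0444) and IRF1 at 0.68 (SE 0.16, limma adjusted p = 0.0464). TRIM21 had 61.9 scaled reads in untreated Hep3B cells, 76.8 with AZD8055, 75.5 with compound #57 and 119 with the combination, 158, 209, 169 and 252 in MHCC97H and 42, 54.8, 50.9 and 103 in Huh7. The combination library was the highest of the 4 in each line. IFITM2 had a log2 difference of 1.04 (SE 0.31, limma adjusted p = 0.0811), TAP1 of 0.82 (SE 0.32, limma adjusted p = 0.145) and TAP2 of -0.80 (SE 0.29, limma adjusted p = 0.129), while IFI6, IFI35 and OAS3 lay at -0.41, -0.40 and -0.40. The medians against compound #57 were 0.31 for class I and 0.11 for ISG, and without MHCC97H they were -0.02 and -0.11. Leaving out any 1 line, or fitting only the libraries compared, gave 0 calls among the members here, when at most 2.87% of all genes were called. The log2 difference of the combination was also set against the sum of those of both single drugs: limma called 0 members and 0 of all genes (0.0%), with 0 members at an unadjusted p under 0.05 in limma (1.54% of all genes) and 4 in voom, so that a departure from the sum was not detectable. These comparisons share libraries, and their values are therefore not independent of each other.

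The calls in the combination against untreated, of members and of all genes alike, depended on Huh7 being in the fit. In all, 18 of 39 members were called (46.2%, against 36.0% of all genes), 17 of them higher. Without Hep3B 12 were called (against 15.6% of all genes) and without MHCC97H 15 (against 32.7%), but without Huh7 0 were, when 11 of all genes were left (0.0953%). At an unadjusted p under 0.05 in limma, 21 members remained without Huh7, 19 of them higher, beside 3584 of all 11548 genes in either direction. With all 3 lines in the fit, 24 members and 5492 of all genes had such a p. Over the 3 fits that each left out a line, the log2 difference of TAP1 lay between 1.80 and 2.55, that of IRF1 between 1.44 and 1.5, that of HLA-C between 1.01 and 1.31 and that of TAP2 between -1.44 and -0.81. With only the combination and untreated libraries in the fit, 11 members were called, against 16.4% of all genes.

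Other genes of the pathway were taken from lists written for signalling, for antigen presentation and for further ISG. In the combination against untreated, 6 of 16 signalling genes (37.5%) were called higher and 2 lower, beside 20.9% of all genes called higher and 15.1% lower. JAK1, the kinase shared by both receptors, had 843, 1277, 1436 and 2398 scaled reads in Hep3B, 1775, 2704, 2314 and 3950 in MHCC97H and 1330, 2201, 1813 and 3431 in Huh7. Its log2 difference was 1.34 (SE 0.12, limma adjusted p = 0.00119), and it was also called with AZD8055 alone at 0.64 (SE 0.12, limma adjusted p = 0.0361). STAT2 rose by 0.91 (SE 0.22, limma adjusted p = 0.0127) and SOCS3, a feedback inhibitor of JAK kinases, by 1.57 (SE 0.45, limma adjusted p = 0.0241), while USP18, which removes ISG15 from proteins and restrains IFNAR2, changed by -0.94 (SE 0.23, limma adjusted p = 0.0131). Of 20 further ISG, 7 were called higher (35%) and 2 lower. The helicase gene DDX60 rose by 2.24 (SE 0.25, limma adjusted p = 0.00169), PARP10 by 1.76 (SE 0.27, limma adjusted p = 0.00301) and the GTPase gene GBP1 by 2.08 (SE 0.54, limma adjusted p = 0.0164). Of 16 presentation genes, 5 were called higher (31.2%) and 4 lower. PSMB8, an immunoproteasome subunit encoded beside TAP1, rose by 1.14 (SE 0.31, limma adjusted p = 0.0208).

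For 30 of 39 members (76.9%, against 58.4% of all genes) the means of the lines, each over 4 libraries, lay further apart than the widest range over treatments within a line. MHCC97H was the highest line for 23 members (59.0%, against 34.9% of all genes) and Huh7 the lowest for 26 (66.7%, against 34.6%). In limma, with the 4 libraries of a line (1 of each treatment) as its replicates, 28 of 39 members were called higher in MHCC97H than in Huh7 and 2 lower (33.8% and 36.4% of all genes). Between MHCC97H and Hep3B, 20 were called higher and 7 lower (29.2% and 38.6%), and between Hep3B and Huh7 21 higher and 4 lower (30.7% and 24.5%). Huh7 was the lowest line for 7 of the 9 class I genes (77.8%, against 34.6% of all genes). HLA-B averaged 8.08 ± 0.56 on the log2 scale in Hep3B (SD, n = 4 libraries), 6.61 ± 0.76 in MHCC97H and 2.69 ± 0.60 in Huh7, and TAP2 7.34 ± 0.43, 7.29 ± 0.35 and 4.19 ± 0.86. HLA-C differed between Hep3B and MHCC97H by less than its spread (8.82 ± 0.56 and 8.68 ± 0.59, limma adjusted p = 0.424) and was 5.30 ± 0.39 in Huh7. ERAP1 went the other way, with its highest mean, 9.81 ± 0.16, in Huh7. TAPBP (9.25 ± 0.53 in Hep3B and 9.36 ± 0.39 in Huh7) and ERAP2 were not called between Hep3B and Huh7.

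Many members were called higher in MHCC97H than in either other line, among them HLA-E, B2M, TAP1, TAPBP, OAS3 and IRF1. OAS1, SAMD9 and ERAP2 were also called higher in MHCC97H than in both other lines. OAS1 averaged 9.77 ± 0.27 there (SD, n = 4 libraries), 2.57 ± 0.77 in Hep3B and 3.17 ± 0.37 in Huh7, and limma did not call Hep3B apart from Huh7 (adjusted p = 0.180). SAMD9, an antiviral factor, averaged 9.43 ± 0.24, 5.10 ± 0.19 and 4.86 ± 0.44 in the same order, and ERAP2 8.26 ± 0.38, 4.37 ± 0.45 and 3.89 ± 0.98. IFI35 was high in MHCC97H and Hep3B (7.61 ± 0.40 and 7.25 ± 0.41) and at 3.28 ± 0.53 in Huh7. SECTM1, in contrast, averaged 8.37 ± 0.99 in Hep3B, 3.65 ± 1.01 in MHCC97H and 4.05 ± 1.11 in Huh7. MHCC97H had the highest mean of the 3 lines for 13 of 23 ISG and 5 of 9 class I genes (34.9% of all genes).

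The promoter strings can be read back against these values. Of 16 members called higher in the combination that had a window, 7 held the ISRE-type string (43.8%), and of the 18 others 14 did (77.8%). TAP1 and TAP2 both held it, as did TAPBP and ERAP1, whereas HLA-B, HLA-C, DDX58, SP100 and UBE2L6 did not within these windows.

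Across the 12 libraries, with the mean of each line removed, the genes outside the list whose levels followed the ISG median most closely were CYB5D2, MYD88, CCDC24, ACAD10 and ACADS, each with a Pearson r of 0.95. The median of class I and that of ISG had an r of 0.82. The points share cell lines, treatments and library totals, and these values are descriptions.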

How the data were processed

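The authors prepared stranded poly(A) libraries, aligned the reads to hg38 (also named in the submitters' processing notes) and deposited log2 values for each gene in each library. The aligner, read counting and normalization are not given in the sources used here. After an offset of 0.001 was subtracted, all deposited log2 values tested gave whole reads (within 0.02 reads) when taken as log2(scaled reads + 1) with libraries scaled to 10000000 reads, so differences understate the change of genes with few reads. Of the reads, 98.6% to 99.2% lay in the table. All genes were tested with limma 3.58.1 in R 4.3.3 (treatment and cell line as terms, variance trend, two-sided, Benjamini-Hochberg over all 11548 genes, 6 residual degrees of freedom). For treatments, p-values measure how a treatment difference varies between lines. For cell lines, they measure how a line difference varies between treatments, and not between independent cultures of a line. Intervals within a line are exact (Clopper-Pearson), are for the ratio of reads without the added 1, and cover counting error only. Alternatives were a pseudocount of 10, a filter on low genes, centring, voom, no block, only the libraries compared and each line or treatment left out. Counts of members higher in all 3 lines under a pseudocount of 10 and centring were chosen after seeing the data. The limma step was tested on simulated data. Python 3.11.15 was used for the rest.

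Members and lists were chosen with earlier results of these data known. Values were given for the central class I and ISG genes, STAT2 and JAK1, all regulators and receptors, members called or at least 2-fold changed in all lines, the 3 members of each list with the largest differences in each direction, the 4 with the widest range between lines and those with 3 reads or fewer. Gene models came from GENCODE release 44 on hg38, where DDX58 is named RIGI. Some results for genes outside the list are not reported here.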

Additional observations from a re-analysis of the deposited data

Results flagged for a closer look

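OAS3, which makes the activator of RNase L, differed in direction between cell lines. In the combination against untreated, its log2 difference was 1.12 in Hep3B and -1.09 in MHCC97H, with 0.09 in Huh7. The counting intervals did not overlap (0.67 to 1.61 in Hep3B and -1.19 to -0.99 in MHCC97H), but they cover counting error only, each line has 1 library per treatment, and the difference between the lines was not tested.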

How the results depend on the processing

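The calls rested on treating cell line as a block and on all 12 libraries sharing 1 estimate of spread. With no cell line block, 0 members and 0 of all genes were called in each comparison of treatments that had calls (AZD8055, the combination, and the combination against compound #57). With only the libraries compared in the fit, the members called were 0 for AZD8055, 11 for the combination and 0 for the combination against compound #57. Of all genes, 0.0173%, 16.4% and 2.29% were called in these fits. Leaving out each cell line in turn gave 0 for AZD8055, 0 to 7 for compound #57, 0 to 15 for the combination and 0 for the combination against compound #57. The shares of all genes called then ran from 0.0% to 0.944% for AZD8055 and from 0.0% to 6.74% for compound #57. They ran from 0.0953% to 32.7% for the combination and from 0.0% to 2.87% for the combination against compound #57. Among the 75% of genes with the highest means, 23 members remained for testing, and between cell lines 14 (MHCC97H against Hep3B), 17 (MHCC97H against Huh7) and 14 (Hep3B against Huh7) were called, from fewer members tested. Of all genes in that fit, 67.4%, 69.1% and 54.7% were called in the same order. A pseudocount of 10, centring on library medians and voom moved no count of members called by more than 1.5 times. The class I median with compound #57 was 0.36 over the 5 members with at least 25 reads in every library. The libraries of a line were thus paired across treatments by the cell line block. In 12 members a library held fewer than 25 reads, which limits how precisely their differences are known.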

Other observations

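Genes of the further list written for antigen presentation moved in both directions in the combination against untreated. CALR (calreticulin) and PDIA3 (ERp57), chaperones of the peptide-loading complex, had limma log2 differences of -1.16 (SE 0.24, adjusted p = 0.00769) and -1.08 (SE 0.22, adjusted p = 0.00718). CALR had 14764 scaled reads in untreated Hep3B cells and 8216 with the combination, 8984 and 3730 in MHCC97H and 15411 and 5939 in Huh7. The proteasome activator subunit PSME1 differed by 0.49 (SE 0.15, limma adjusted p = 0.0282), its partner PSME2 by -0.72 (SE 0.15, limma adjusted p = 0.00784) and PSME3 by -0.94 (SE 0.14, limma adjusted p = 0.00301). CTSS, which encodes the protease cathepsin S, had 5.62 scaled reads in untreated Hep3B cells and 34.8 with the combination, 62.2 and 651 in MHCC97H and 36.9 and 49.0 in Huh7, a limma log2 difference of 2.07 (SE 0.52, adjusted p = 0.0147). These genes are not members and were chosen for naming after their values were seen.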
